A study of Mus musculus with 22 samples.

Results

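The segments described here are continuous stretches of the mouse autosomes that were called as lamina-associated domain (LAD) in MEFs under a treatment and in none of the untreated (WT) MEFs. LADs are long stretches of mostly silent, gene-poor chromatin that lie against the nuclear lamina, a meshwork of lamins under the inner nuclear membrane. A segment had to lie outside all 3 WT LAD lists, inside both LAD lists of at least 1 of the treatments shAC, BIX01294, DZNep and TSA, and be 20 kb or longer. Of 1073 stretches of any length that met the first 2 conditions, 388 were 20 kb or longer and together spanned 28.1 Mb. The 685 shorter stretches held 3.95 Mb. The segments were thus selected on the measured calls themselves, and their number, length, place and class are given as a description with no test.

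In DamID, the technique used to map LADs, lamin B1 is joined to Dam, an enzyme of bacteria that methylates adenines, so that DNA close to the lamina gains the mark. Dam without a partner (Dam-only) serves as the control for open chromatin. LADs carry repressive histone marks, among them H3K9me2, which the methyltransferase G9a lays down, and at their borders often H3K27me3, the product of EZH2. BIX01294 inhibits G9a, DZNep lowers histone methylation including that laid down by EZH2, and TSA inhibits histone deacetylases, which raises acetylation. shAC denotes a hairpin against the transcript of lamin A and lamin C, the A-type lamins of the lamina.

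The 22 sequenced samples were DamID-seq libraries of primary MEFs, embryonic fibroblasts of C57bl/6 mice isolated at e13.5 and used within 5 passages. They paired into 11 sets of an experiment and a control library, taken as Dam-lamin B1 and Dam-only, with 1 LAD list each. WT had 3 lists (embryos 1.5, 1.8 and x17), shAC had 2 (embryos 1.5 and x17), and each of the 3 drugs had 2 (embryos 1.8 and x17). Drugs were given 18 to 24 h before the Dam viruses and cells were taken at 60 h, counted from a step that the labels do not name. shAC cells were selected with puromycin, received the Dam viruses 4 days after the hairpin virus and were grown for 48 h more. WT cells received neither a drug nor a control hairpin, so the hairpin virus and its selection cannot be told apart from the loss of the lamins. The 4 comparisons share the 3 WT lists and embryo x17, and the lists carry no measured level, so the depth behind a call is unknown. Positions are in mm9.

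After joining intervals less than 25 kb apart and keeping those over 100 kb, the 11 lists held 22882 LADs on chromosomes 1 to 19. The WT lists left 812.5 Mb uncovered by any of them, 33.6% of the mapped span of the chromosomes, and the segments filled 3.45% of that space. Their median length was 48.4 kb, with quartiles at 29.4 and 102.6 kb. The shortest were 20.1 kb (chr15:94363515-94383639) and 20.3 kb (chr15:36070265-36090522), both of BIX01294. Just under the limit were stretches of 19.97 kb of shAC (chr13:104201695-104221666) and 19.8 kb of BIX01294 and DZNep (chr17:42946850-42966645). All 4 adjoined a WT LAD at one end.

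A treatment was said to carry a segment when both its lists shared an unbroken run of 20 kb or more of it. BIX01294 carried 171 segments (10.6 Mb), TSA 115 (11.3 Mb), shAC 87 (5.79 Mb) and DZNep 86 (6.29 Mb). As the background, 38711 windows of 20 kb lay wholly outside the WT lists, and the share wholly inside both lists of a treatment was 0.488% for shAC, 0.86% for BIX01294, 0.47% for DZNep and 1.11% for TSA. These shares follow from the same calls that chose the segments. TSA covered slightly more bases than BIX01294 with fewer segments, because its segments were longer, with a median of 82.6 kb against 43.5 kb for BIX01294, 45.2 kb for shAC and 49.0 kb for DZNep. The order of these treatments by number turned with the processing: TSA carried 187 and BIX01294 142 in the lists as deposited, 129 and 125 without joining, 74 and 67 at 50 kb or longer, and 46 and 33 at 100 kb or longer.

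The counts and the span depended on single lists. A base had to pass every list to be in a segment, so leaving out a list could only add bases. Without the WT list of embryo 1.8 there were 795 segments (69.4 Mb), without that of embryo x17 there were 689 (57.0 Mb), and without that of embryo 1.5 there were 494 (33.6 Mb). Reading TSA from embryo 1.8 alone gave 63.4 Mb and reading BIX01294 from 1 list gave 56.9 Mb (embryo x17) or 44.9 Mb (embryo 1.8). Leaving out every base of a short WT interval, which could only lower the span, gave 18.6 Mb. When each treated list was set only against the WT list of its own embryo, 540 segments were found and shAC carried 153 of them in place of 87.

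The 2 lists of a treatment shared a minority of their calls outside WT. In shAC, 26.0% of the 24.3 Mb called outside WT in embryo 1.5 and 35.9% of the 17.6 Mb called in embryo x17 lay in both. For BIX01294 the shares were 36.7% of 32.9 Mb in embryo 1.8 and 24.8% of 48.8 Mb in embryo x17. For DZNep they were 32.8% of 20.4 Mb in embryo 1.8 and 24.8% of 27.0 Mb in embryo x17. TSA was the least even, with 52.0 Mb outside WT in embryo 1.8, of which 22.7% was shared, and 25.5 Mb in embryo x17, of which 46.3% was shared. Taken over the bases in either list, the part in both was close in all 4 treatments, from 16.4% for DZNep to 18.0% for TSA.

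A count of the same kind was taken in WT, by asking which stretches lay in both of 2 WT lists and outside the remaining WT list. This comparison was added after the segments had been seen. Outside the list of embryo 1.5, the WT pair gave 886 stretches of 20 kb or longer, and the treated pairs gave 717 (shAC), 1123 (BIX01294), 860 (DZNep) and 593 (TSA). Outside the list of embryo 1.8 the WT pair gave 351 and the treated pairs 476, 584, 390 and 305 in the same order. Outside that of embryo x17 the WT pair gave 653 and the treated pairs 324, 866, 586 and 413. The treated pair and the WT pair come from the same embryos only for the drugs set against embryo 1.5 and for shAC set against embryo 1.8. In these matched cases BIX01294 (1123) and shAC (476) were above the WT pair (886 and 351), DZNep (860) was slightly below it and TSA (593) was below it. In the other cases the treated pair includes the embryo of the WT list set aside, so embryo and treatment cannot be told apart. In bases the matched WT pairs held 76.7 Mb against embryo 1.5 and 21.7 Mb against embryo 1.8, the drugs 107.9 Mb (BIX01294), 79.0 Mb (DZNep) and 60.4 Mb (TSA), and shAC 39.0 Mb. Stretches that met no LAD of the WT list set against them numbered 28 in the WT pair and 58 to 80 in the treated pairs against embryo 1.8, 235 in the WT pair and 172 to 305 in the treated pairs against embryo 1.5, and 135 and 51 to 234 against embryo x17. TSA was above the WT pair in these against embryos 1.8 (58) and x17 (143) and below it against embryo 1.5 (200).

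**Figure D1:**
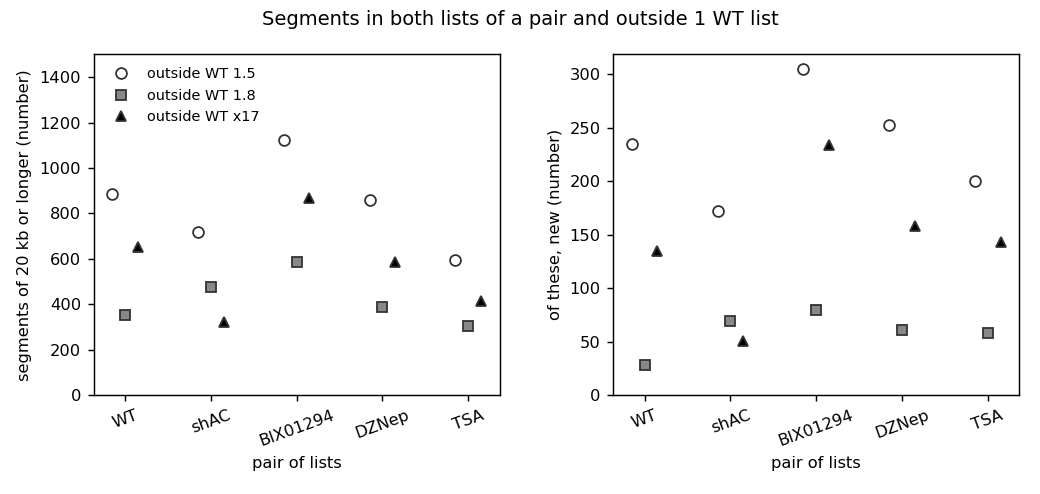
Number of stretches of 20 kb or longer that lay in both lists of a pair and outside 1 WT list (left), and of those that touched no LAD of that WT list (right); the pair is the other 2 WT lists or both lists of a treatment, and each symbol is 1 WT list set aside. The WT pair gave 351 to 886 stretches; embryos are matched between the pairs only for the drugs against WT 1.5 and for shAC against WT 1.8.

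Segments were sorted by how they met the union of the WT LADs. A new segment touched none, an extension touched 1 at one end, and a bridge filled the whole gap between a pair of them. Extensions numbered 228 (13.52 Mb, median 44.0 kb), new segments 82 (11.1 Mb, median 118 kb) and bridges 78 (3.47 Mb, median 31.6 kb), so that 306 of the 388 segments (78.9%) adjoined a WT LAD. New segments could hardly be short, since a LAD had to exceed 100 kb to be counted: 64 of the 82 were 100 kb or longer, and the rest were shorter because the LADs of the 2 lists overlapped in part. Of the 384 ends that met a WT LAD, 95.8% met one called at that base in a single WT list. That share was 96.9% over the 3701 ends of all WT gaps of 20 kb or longer. The borders that the segments adjoin are those of the widest of the 3 WT calls. Measured against blocks called in at least 2 WT lists, 47.7% of the segments lay within 25 kb of one, and against bases called in all 3 WT lists 29.1% did.

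The mix of classes differed most for TSA. Of its 115 segments, 40 were new (34.8%), and these held 55.1% of its bases. New segments were 16 of 86 for DZNep (18.6%), 22 of 171 for BIX01294 (12.9%) and 11 of 87 for shAC (12.6%). shAC stood out in bridges, with 30 of 87 (34.5%), against 38 for BIX01294 (22.2%), 14 for DZNep (16.3%) and 17 for TSA (14.8%). Extensions were the most frequent class in each treatment, between 50.4% of the segments for TSA and 65.1% for DZNep.

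**Figure D2:**
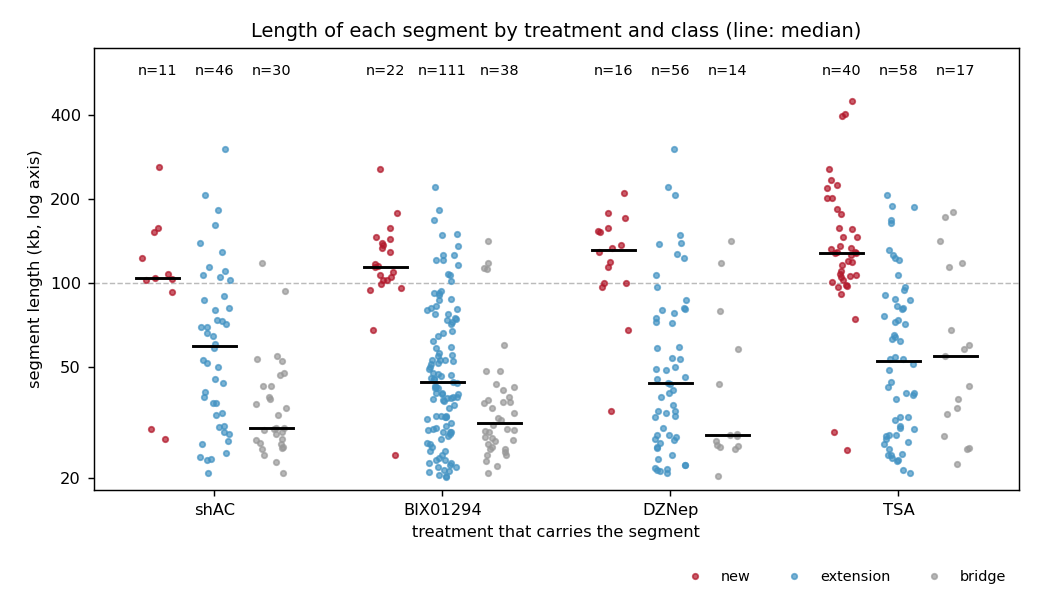
Length of every segment (kb, log axis) by the treatment that carries it and by class, with the median as a line and 100 kb dashed; a segment carried by several treatments is drawn in each. The 40 new segments of TSA reach 452 kb, and bridges have medians of 28.4 to 54.6 kb.

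The 3 longest new segments were all carried by TSA alone. The longest spanned 452 kb (chr17:6478151-6930219), 29.0 kb from a WT LAD called in embryo 1.8. In the TSA list of embryo 1.8 it was part of a longer LAD that also ran through that WT LAD, whereas the TSA list of embryo x17 held separate LADs there. Besides both TSA lists it lay almost wholly in 1 list of each other treatment, with 93.9% in shAC embryo 1.5, 100% in BIX01294 embryo x17 and 99.9% in DZNep embryo x17, and with no base in a LAD of their second lists. It was thus called in 5 of the 8 treated lists although only TSA had it in both. The next, of 405 kb (chr5:143117253-143522528), behaved otherwise: it was complete in both TSA lists, had no base in a LAD of the other 6 treated lists, and no WT list held even a short interval there. Short intervals of both BIX01294 lists and of DZNep embryo 1.8 did lie in it. The third, of 398 kb (chr2:27919183-28317129), was likewise without a base in a LAD of the other 6 treated lists, but all 3 WT lists held short intervals in it, which covered 0.826% to 7.68% of its length.

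The longest extension was carried by shAC and DZNep and reached 302 kb (chr13:103037881-103340360) beyond a WT LAD. It was the longest segment of either treatment. Both shAC lists covered it whole, DZNep covered 16.1% in embryo 1.8 and 99.96% in embryo x17, and BIX01294 covered 98.6% in embryo x17 and none in embryo 1.8. TSA covered 62.2% in embryo x17 and none in embryo 1.8. Each drug thus covered more of it in embryo x17 than in embryo 1.8. An extension of 222 kb carried by BIX01294 and DZNep (chr1:61265974-61487690) was whole in 3 of their 4 lists and covered to 64.5% in BIX01294 embryo x17. It also lay in LADs of shAC embryo 1.5 (63.0%) and TSA embryo x17 (85.6%), and in no LAD of their second lists. The third, of 207 kb on chromosome 18, was whole in both TSA lists and otherwise met only BIX01294 embryo 1.8 (29.97%).

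The 3 longest bridges all involved TSA. One of 179 kb (chr5:38587171-38766656) and one of 173 kb (chr11:56812084-56984647) were carried by TSA alone. The first was also whole in BIX01294 embryo x17, and the second was whole in shAC embryo x17 and covered to 85.5% in DZNep embryo x17. The third, of 142 kb (chr17:49564225-49705790), was whole in both TSA lists, whereas BIX01294 filled 64.0% and 61.6% of it and DZNep 18.2% and 16.4%, in embryos 1.8 and x17. A shared segment could thus be a complete bridge in one treatment and a partial filling in another.

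The other treatments had their own longest segments. shAC alone carried a new segment of 261 kb (chr13:26134428-26395791), of which 65.1% was also called in BIX01294 embryo x17. DZNep alone carried a new segment of 210 kb (chr7:89268596-89478581), of which 64.5% was called in that same BIX01294 list. The longest segment of BIX01294 was new, 256 kb long (chr16:35103999-35360360) and shared with TSA, which covered 97.2% in embryo 1.8 and 39.8% in embryo x17. The longest of BIX01294 alone was an extension of 150 kb (chr6:142329026-142479060), of which short WT intervals covered 54.1%, 66.1% and 63.3% in embryos 1.5, 1.8 and x17. These 4 segments differ in how far they were also marked in WT: no WT list held an interval in the chromosome 16 segment, 1 list did in the chromosome 13 and chromosome 7 segments, and all 3 did in the chromosome 6 segment.

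**Figure D3:**
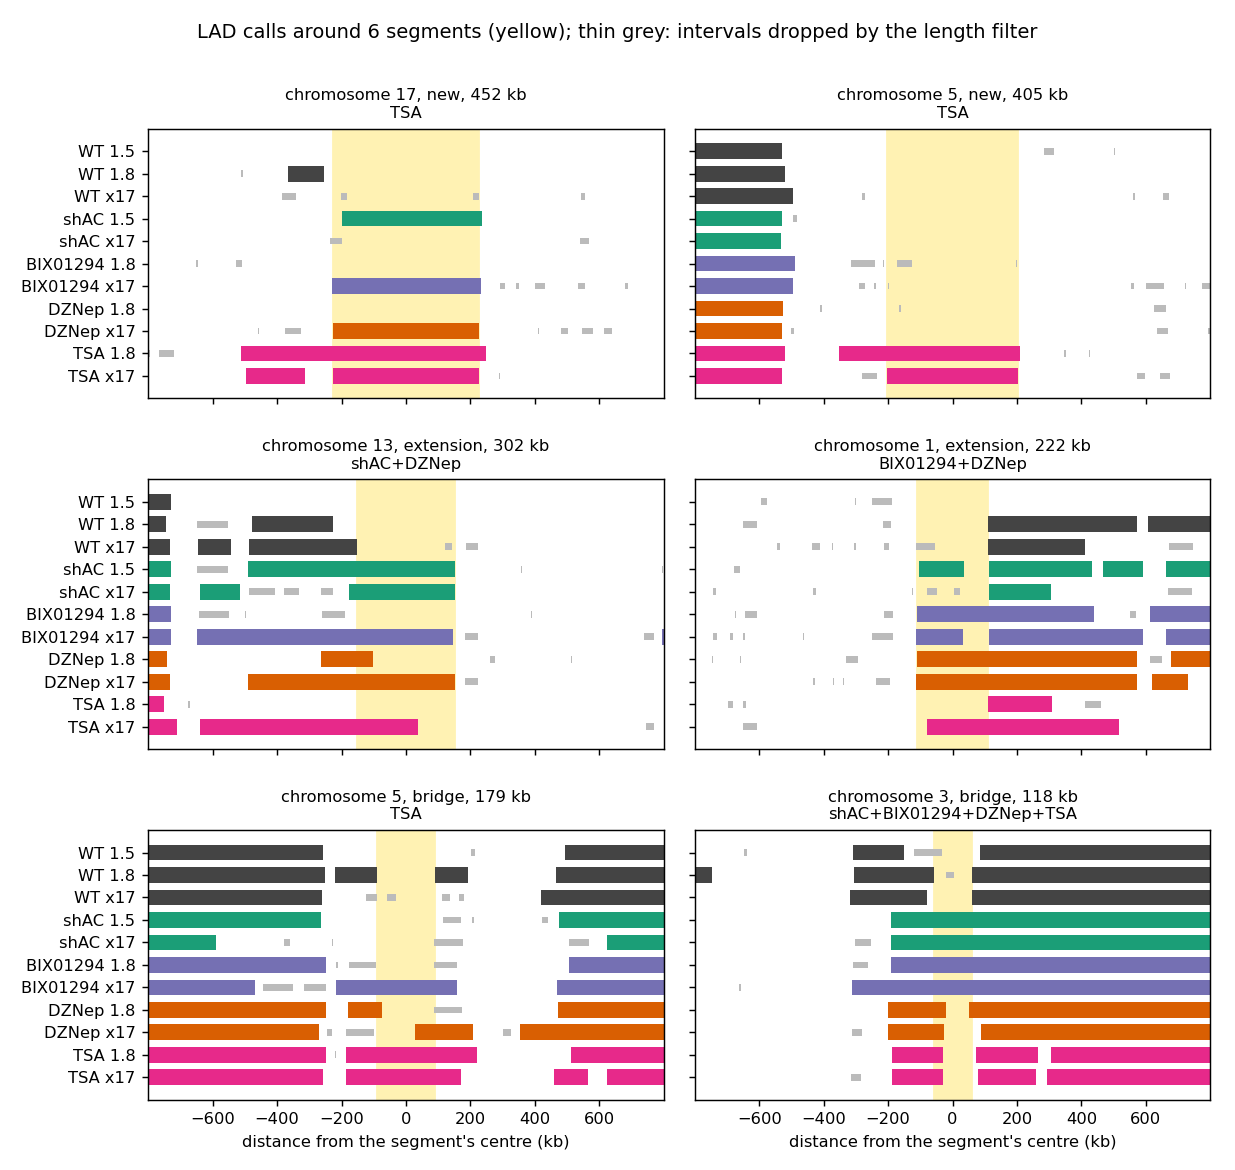
LADs of the 11 lists (coloured bars, rows) within 800 kb of the centre of 6 segments (yellow), with intervals of 100 kb or less, which the length filter dropped, as thin grey bars; the horizontal axis is the distance from the segment's centre in kb. The chromosome 5 segment of 405 kb is covered by LADs of the 2 TSA lists alone, while the chromosome 17 segment of 452 kb is covered in 5 lists.

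Most segments were carried by a single treatment. This held for 328 of the 388, of which 131 were of BIX01294, 89 of TSA, 56 of shAC and 52 of DZNep. A further 51 were carried by 2 treatments, 7 by 3 and 2 by all 4. The 60 shared segments became 249 of 795 without the WT list of embryo 1.8 and 224 of 689 without that of embryo x17, and 26 when both lists of a treatment had to cover 90% of a segment. Leaving out a list relaxes the rule and asking for 90% tightens it, so the direction of these changes was set beforehand. Among segments carried by exactly 2 treatments, the most frequent combination was shAC with BIX01294 (13 segments), followed by BIX01294 with DZNep (12). Counting every segment that a pair shared, BIX01294 with DZNep came first (20), followed by shAC with BIX01294 (17). Of the 60 shared segments, 36 were extensions, 17 bridges and 7 new. The shared new segments belonged to BIX01294 with DZNep (4), BIX01294 with TSA (2) and shAC with DZNep (1). DZNep had the largest shared part, 34 of its 86 segments (39.5%), and TSA the smallest, 26 of 115 (22.6%), with 31 of 87 for shAC (35.6%) and 40 of 171 for BIX01294 (23.4%) between.

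The 2 segments carried by all 4 treatments were a bridge of 118 kb (chr3:123353445-123471375) and an extension of 107 kb (chr15:57226749-57333694). The bridge was closed in both lists of shAC and of BIX01294. DZNep covered 40.3% and 27.1% of it in embryos 1.8 and x17, and TSA 26.1% in each, so in these drugs the gap was not closed. In DZNep embryo x17 and in both TSA lists the LAD on the far side of the gap began beyond the WT border, so the percent filled is not by how much the gap narrowed. The extension on chromosome 15 was covered to 50% or more in 7 of the 8 treated lists and to 36.6% in the eighth, TSA embryo 1.8. WT was not blank there, since dropped short intervals covered 50.7% of it in embryo 1.8 and 83.7% in embryo x17.

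**Figure D4:**
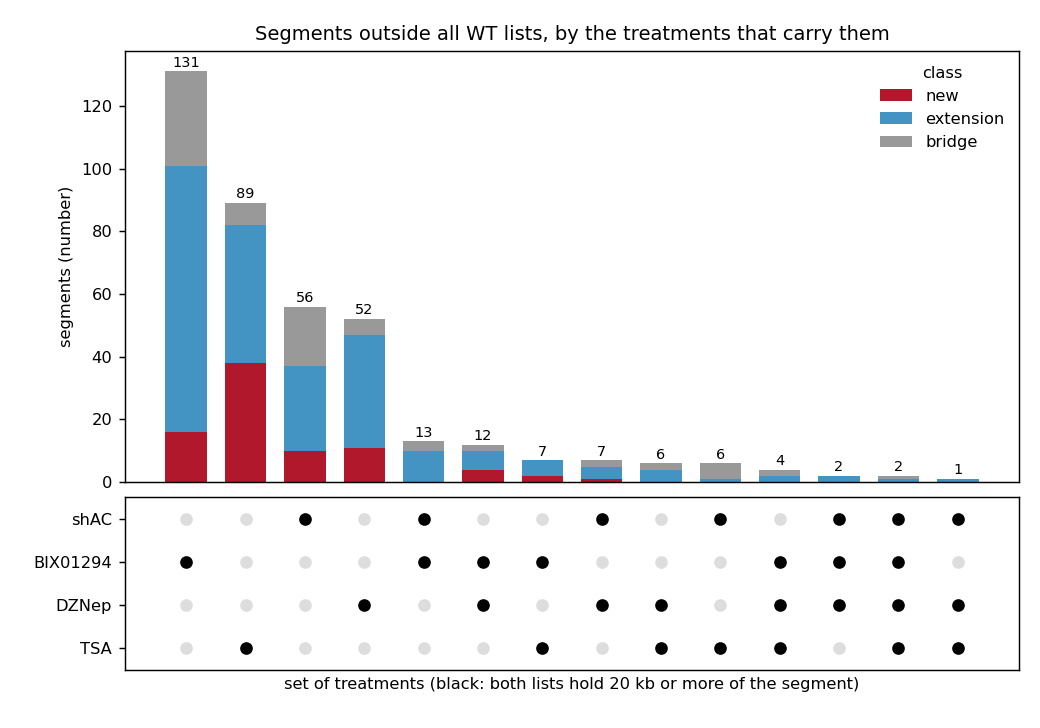
Number of segments for each set of treatments that carries them (bars, coloured by class) with the set marked by black dots below. The 4 sets of a single treatment hold 328 segments, and each shared set holds 1 to 13 segments.

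The overlap of 2 treatments was set beside the mean overlap over all circular shifts of one set along each chromosome, confined to the bases outside the WT lists. The sets held all bases in both lists of a treatment, stretches under 20 kb included. That mean is exact, being the product of the 2 lengths over the space, and no shift was drawn. BIX01294 and DZNep shared 1.68 Mb, which was 16.1 times the mean of 0.104 Mb, and shAC and DZNep shared 0.820 Mb, 15.0 times the mean of 0.0545 Mb. shAC and BIX01294 shared 0.906 Mb (8.98 times the mean). The pairs with TSA had ratios of 6.46 with BIX01294 (1.13 Mb), 6.19 with DZNep (0.601 Mb) and 4.30 with shAC (0.378 Mb). Their order against the other pairs was not fixed: without WT embryo 1.8, shAC with BIX01294 had a ratio of 5.93, below BIX01294 with TSA (7.15) and DZNep with TSA (7.97), and without shAC embryo 1.5 it had 5.25. A shift treats every base outside WT as equally likely to be called, which the calls do not bear out, since segments cluster at WT borders. It also takes no account of the WT lists and embryos that the treatments share, and the part of either in these ratios was not tested. Without shAC embryo 1.5 the ratio of shAC with DZNep was 8.37, without DZNep embryo x17 it was 8.59 and without WT embryo 1.8 it was 8.78. Without TSA embryo x17 the ratio of shAC with TSA was 1.91, and without BIX01294 embryo 1.8 that of BIX01294 with DZNep was 8.49.

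The parts of segments that lay in both lists of a treatment, its stretches, could also be read in the 6 lists of the other treatments, which had not been used to find them. The stretches of shAC were called to 56.0% in BIX01294 embryo x17 and 42.0% in DZNep embryo x17, but to 22.6% and 21.9% in embryo 1.8 of the same drugs. TSA covered 23.5% of them in embryo x17 and 11.2% in embryo 1.8. In each drug the list of embryo x17, an embryo that shAC shares, was thus higher than that of embryo 1.8. Over all bases outside WT the list of embryo x17 also covered more for BIX01294 (6.00% against 4.05%) and DZNep (3.32% against 2.51%), but less for TSA (3.14% against 6.40%). Read the other way, the stretches of each drug were covered less in shAC embryo x17, which the drugs share, than in shAC embryo 1.5, as the values below show. Over all bases outside WT shAC embryo x17 also covered less (2.17% against 2.99%). Relative to these shares the coverage in embryos x17 and 1.5 was 5.13 and 9.43 times for BIX01294, 8.05 and 11.7 times for DZNep, and 4.81 and 5.29 times for TSA. The stretches of BIX01294 were called to 28.3% in shAC embryo 1.5, 11.1% in shAC embryo x17, 31.6% and 32.0% in DZNep, and 28.8% and 21.4% in TSA (embryos 1.8 and x17). Those of DZNep were called to 35.1% and 17.4% in shAC, 45.0% and 50.4% in BIX01294, and 32.8% and 20.5% in TSA. Those of TSA were called to 15.8% and 10.4% in shAC, and their shares ran from 9.96% in DZNep embryo 1.8 to 27.2% in BIX01294 embryo x17. Every one of these shares exceeded the part of all bases outside WT that the same list covered, which ranged from 2.17% to 6.40%, and the smallest excess was that of shAC stretches in TSA embryo 1.8 (1.75 times). The treatments share WT lists and embryos, and the part of these in the excess was not tested.

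**Figure D5:**
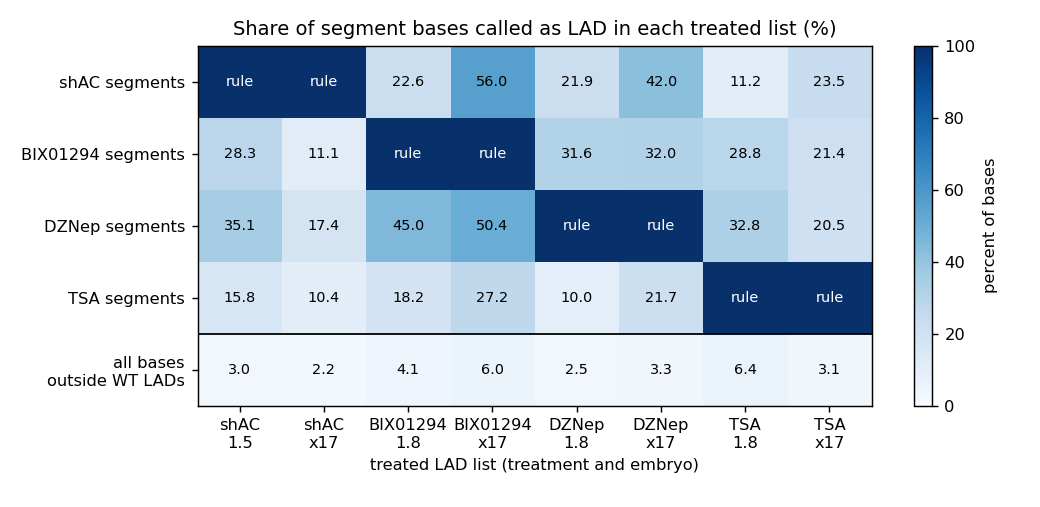
Percent of the bases of each treatment's segments, counted in runs of 20 kb or more in both its lists, that were called as LAD in each of the 8 treated lists. The bottom row gives the same percent over all bases outside the WT LADs. Cells fixed at 100 by the rule are marked. Segments of DZNep reach 50.4% in BIX01294 embryo x17, and those of TSA stay at or below 27.2% in lists of other treatments.

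Segments carried by 1 treatment were often called in part in lists of the others. Of the 388, 122 (31.4%) were covered to 50% or more in 2 treated lists, 116 in 3 lists, 94 in 4 and 56 in 5 or more. No segment was covered to 50% in all 8. Segments of a single treatment that were under 50% in every list of the others numbered 47 of 89 for TSA (52.8%), 46 of 131 for BIX01294 (35.1%), 14 of 52 for DZNep (26.9%) and 13 of 56 for shAC (23.2%). Those with no base in a LAD of any list of the others numbered 34 of 89 for TSA (38.2%), 24 of 131 for BIX01294 (18.3%), 7 of 52 for DZNep (13.46%) and 6 of 56 for shAC (10.7%). Intervals of 100 kb or less in the lists of the others were not counted. The chromosome 5 segment of 405 kb, among the 34 of TSA, held such intervals in lists of BIX01294 and DZNep. Leaving out the segments in which a WT list held a short interval left 17, 9, 4 and 4, with short intervals of the other treatments still allowed. Of the 17 of TSA, 12 were new, with lengths up to 405 kb, while none left in the other treatments was new.

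WT lists often held shorter intervals where segments lay. Intervals of 100 kb or less, joined where less than 25 kb apart and then dropped by the length filter, covered 29.7% of segment bases in at least 1 WT list, against 10.7% of all bases outside the WT LADs. By list the shares were 7.95% in embryo 1.5, 16.0% in embryo 1.8 and 19.2% in embryo x17, and all 3 were above those of the bases outside WT LADs (2.22%, 6.04% and 5.20%). New segments were the most marked, with 36.2% of their bases and 62 of the 82 segments (75.6%) touched by such an interval. Bridges were the least marked, at 12.1% of bases and 19 of 78 segments. New segments of TSA were touched less often, 24 of 40, than those of shAC (9 of 11), BIX01294 (20 of 22) and DZNep (15 of 16). In 34 of the 82 new segments a dropped interval of 1 WT list filled 50% or more of the length.

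The joining step also made part of the segments. On average 19.4% of a segment's length lay in gaps that had been closed by joining in a list that carries it. This was 31.1% for bridges, 20.7% for extensions and 4.69% for new segments, and 24.0% for BIX01294 against 6.69% for TSA. In 50 of the 388 segments closed gaps made up 50% or more of the length.

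The WT union left 1854 gaps of 20 kb or longer on the autosomes, and 365 of them (19.7%) held a segment. Bridges lay mostly in short gaps. Of 344 gaps of 20 to 50 kb, 62 were bridged (18.0%), compared with 9 of 290 from 50 to 100 kb, 7 of 428 from 100 to 250 kb none of 582 from 250 to 1000 kb and none of 210 above. Segments filled 18.0% of the bases of the shortest gaps and 2.36% of those in gaps above 1000 kb. The gap with the most segments by number, 2772 kb on chromosome 8, held 4: new ones of 92.9 kb and 29.9 kb in shAC, a new one of 220 kb in TSA, and an extension of 126 kb in BIX01294 and TSA.

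New segments lay a median of 195 kb from the nearest WT LAD, and 22 lay more than 500 kb away. TSA accounted for most of the distant ones. Its new segments had a median distance of 364 kb, against 229 kb for shAC, 83.1 kb for BIX01294 and 65.1 kb for DZNep, and it carried 33 of the 55 that lay more than 100 kb away. Of the new segments of each treatment, 33 of 40 for TSA, 9 of 11 for shAC, 11 of 22 for BIX01294 and 7 of 16 for DZNep lay beyond that distance, so shAC was close to TSA. The farthest, of 128 kb (chr4:134914918-135042884), lay 2979 kb from a WT LAD. It met no LAD of the other 6 treated lists, no WT list held an interval there, and it was singled out after its values were seen.

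The segments were spread over all 19 autosomes but not evenly. Relative to the space outside WT LADs they were densest on chromosome 16 (64.2 kb per Mb), chromosome 5 (55.0) and chromosome 13 (52.3) and sparsest on chromosomes 1 (17.1) and 9 (17.3). shAC placed 11 of its 87 segments on chromosome 13 (12.6%, where 5.02% of the space lies) and none on chromosomes 17, 18 and 19. TSA placed 13 of 115 on chromosome 5 (11.3% against 6.32% of the space). BIX01294 and TSA had segments on every autosome, and BIX01294 had 18 of 171 on chromosome 3 (10.5% against 5.71%). At the far ends of the chromosomes the treatments differed. The last 10 Mb held 15.9% of the bases of TSA segments and 0.898% of those of shAC segments, where 8.63% of the space lies, with BIX01294 (8.73%) and DZNep (7.50%) between. The first 10 Mb held 11.8% for TSA, 7.75% for DZNep, 7.01% for shAC and 5.93% for BIX01294, where 6.27% of the space lies.

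Calls in the opposite direction were also counted. Stretches of 20 kb or longer that lay in all 3 WT lists and in neither list of a treatment numbered 599 for TSA (55.3 Mb), 193 for shAC (13.2 Mb), 97 for DZNep (4.52 Mb) and 50 for BIX01294 (2.32 Mb). This rule mirrors that of the segments but draws on other bases, those called in all 3 WT lists, whose total is not given here. Ratios of these lost stretches to segments thus set counts from unlike spaces side by side. The lost stretches were not recomputed under the alternatives. TSA had the most of these stretches and the most segment bases by whole segment length (11.3 Mb, with 10.6 Mb for BIX01294). Counted over all bases in both lists of a treatment, at any length, BIX01294 had 12.1 Mb and TSA 11.8 Mb. TSA had 5.21 lost stretches for each segment. BIX01294 had the fewest lost stretches and, at the settings used here, the most segments, with 0.292 lost stretches for each. On the autosomes the BIX01294 lists held 1481 and 1536 Mb of LADs, the DZNep lists 1440 and 1457 Mb and the TSA lists 1356 and 1302 Mb, in embryos 1.8 and x17. The shAC lists held 1431 and 1339 Mb (embryos 1.5 and x17) and the WT lists 1377 to 1507 Mb. The order of the treatments by the mean of their lists was that of the lost stretches reversed. It was not that of the segments, of which TSA, with the lowest mean total, carried more than shAC and DZNep. That last order turned without the WT list of embryo x17 (TSA 191, shAC 266, DZNep 202) and, for DZNep, without that of embryo 1.8 (TSA 233, DZNep 270). For shAC it turned in the same-embryo comparison (TSA 138, shAC 153) and with LADs over 200 kb only (TSA 67, shAC 70). It also turned where shAC or DZNep was read from 1 list. The part of the total called in either number was not tested.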

How the data were processed

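The authors deposited 1 LAD list for each pair of an experiment and a control library, without pooling replicates. These were taken as Dam-lamin B1 and Dam-only, and the lists as made by segmenting the ratio of reads with LADetector, as the methods of the study describe for its LADs; how these particular lists were made is not given in the sources used here. The deposited values are interval positions with no score, signal or count, so each library's depth is unknown, intervals near the calling limit look like strong ones, and precision rests on the number of lists. The genome build is mm9 per the labels, and the aligner is not given in the sources used here. Signal tracks were left out, and genes were not placed because no annotation of mm9 was used.

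Intervals less than 25 kb apart were joined and those over 100 kb kept, and sets were compared base by base with Python 3.11.15 and numpy 2.4.6. On simulated data, 200 interval sets were counted again one base at a time, with 0 mismatches. Segments and lists were chosen with earlier results of these data known. Named segments are the 3 longest of each class, the longest of each treatment and of each treatment alone, those of all 4 treatments, and those next to the 20-kb limit. Groups come from the sample labels. Lists with the same embryo name were taken as one animal and paired on that ground, with no check of levels possible. Lists of one group carry different embryo names, so the spread between them holds differences between animals as well as technical ones. No test was run. Alternatives were other joining distances, length limits and rules for carrying and touching, the same-embryo block, and each list left out in turn.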

Additional observations from a re-analysis of the deposited data

Results flagged for a closer look

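The X chromosome, which the report leaves out, held 31 segments by the same rule. They spanned 3002 kb, which is 134.5 kb per Mb of the space outside the WT LADs there, against 34.5 kb per Mb on the autosomes, and the longest reached 650 kb. TSA carried 17 of them, 16 of these alone, DZNep 11, BIX01294 6 and shAC 3. By class they were 16 extensions, 11 bridges and 4 new segments, of which TSA carried 3 and DZNep 1. They were flagged because the X chromosome lies outside the autosomes that the report covers. As for the segments on the autosomes, WT has no LAD there by construction. The labels used here give no sex of the embryos, and the part of sex in these calls was not tested.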

How the results depend on the processing

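Of 278 values recomputed under alternatives for 15 results, 184 stayed within 1.5 times the main value or within its error and 94 moved. The error was a 95% interval over the 388 segments, used for the percent that touch (74.5% to 82.6%) and the median length (43.5 to 54.6 kb). It treats segments as independent, though all come from the same 11 lists. Some of the 184 could hardly move. Leaving out a treated list keeps the ratios of pairs without that treatment and, nearly always, the counts of the other treatments. Without a minimum LAD length there were 588 segments, with 134 for shAC, 197 for TSA and 96 carried by 2 or more treatments. A limit of 50 kb on segments gave 189 (shAC 35, BIX01294 67, DZNep 35, TSA 74, shared 21) and one of 100 kb gave 104 (19, 33, 20, 46 and 14), and 10 kb gave 91 shared. LADs over 200 kb only gave 48 for DZNep and 67 for TSA, and the lists as deposited 187 for TSA. Asking for 90% coverage left 26 shared segments. The percent that touch a WT LAD was 66.0% in the lists as deposited, 70.1% without joining, 83.8% with LADs over 200 kb, 83.1%, 59.8% and 38.5% at segment limits of 10, 50 and 100 kb, 68.4% when short WT intervals were avoided too, and 47.7% for blocks in at least 2 WT lists. Shifts over the whole chromosome span gave ratios of 27.2 (shAC with BIX01294), 45.2 (shAC with DZNep), 12.7 (shAC with TSA), 49.3 (BIX01294 with DZNep), 18.95 (BIX01294 with TSA) and 18.1 (DZNep with TSA), in part by construction, since segments avoid WT LADs. In the same-embryo block (pairing by embryo) there were 540 segments, with 153 for shAC in place of 87, 231 for BIX01294, 115 for DZNep, 138 for TSA and 84 shared. That block sets fewer WT lists against each treatment, and touching has no value in it because no single WT union applies.

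Leaving out each list in turn gave 494 to 795 segments (33.6 to 69.4 Mb), 72.3% to 82.1% touching, 86 to 303 for shAC, 171 to 592 for BIX01294, 86 to 341 for DZNep, 115 to 502 for TSA and 77 to 249 shared. The span could only rise, since each list left out relaxes the rule. The highest counts per treatment came without one of its own lists, where the other was read alone, and the highest shared count without WT embryo 1.8. Without that list shAC carried 152, BIX01294 465, DZNep 270 and TSA 233; without WT embryo x17 they carried 266, 340, 202 and 191. The ratios, whose list-by-list values were added after seeing the data, ranged from 5.25 to 9.60 (shAC with BIX01294), 8.37 to 15.0 (shAC with DZNep), 1.91 to 7.70 (shAC with TSA), 8.49 to 16.1 (BIX01294 with DZNep), 4.65 to 8.42 (BIX01294 with TSA) and 4.596 to 8.14 (DZNep with TSA). Apart from what these constructions show, the cause of each move was not tested.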
